A study of Mus musculus with 8 samples.

Results

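Cholesterol and fatty acid synthesis is represented here by 35 mouse genes out of the 52636 in the count table. The genes were taken from a list of symbols, not from measured values, and were found through GENCODE release M21. They comprise 18 enzymes of the mevalonate and sterol pathway, 6 genes of sterol sensing and sterol transport, 8 fatty acid enzymes, and 3 targets of the liver X receptors (LXR). All 35 passed the filter on low counts, which 17261 genes passed in all. Counts came from spleen and lymph node immune cells harvested at 35 to 55 days of age before signs of disease. The cells were kept for 4 days with anti-CD3 (1 μg/ml), IL23 (20 ng/ml), TGF-β (4 ng/ml), IL6 (20 ng/ml) and IL12 (3 ng/ml), in medium with foetal bovine serum. Every group shared this TH1/TH17 stimulation. The 4 groups were TCR1640 males, TCR1640 females, SJL/J males and SJL/J females. TCR1640 is an SJL/J line whose T cells carry a transgenic receptor for a myelin antigen, and plain SJL/J mice served as wild type. The questions were how the sexes and the strains differ.

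Cells make cholesterol from acetyl-CoA through mevalonate, squalene and lanosterol, and fatty acids through malonyl-CoA. The transcription factors SREBP1 and SREBP2, encoded by Srebf1 and Srebf2, drive the enzyme genes when sterols in the endoplasmic reticulum run low, and SCAP escorts them to the Golgi while INSIG proteins hold them back. LXR respond to oxysterols, as sterol accumulates, and raise the efflux pumps encoded by Abca1 and Abcg1. Activated T cells are known to raise SREBP-driven lipid synthesis as they grow and divide.

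Each group had 2 data columns, and these differed by little more than sampling noise. A chi-square test over genes gave 1.05 to 1.08 per degree of freedom for columns of the same group, against 3.12 to 17.1 for columns of different groups. The 2 columns were therefore summed and each group counted as 1 sample. The summed counts were 10005975 for TCR1640 males, 7937262 for TCR1640 females, 7678860 for SJL/J males and 8378659 for SJL/J females. Nothing in the labels says how many mice stand behind a group, so no value here measures the spread between mice. Sex labels matched the Y-linked gene Eif2s3y, with 87 to 124 counts in each male column and 0 in each female column. The receptor genes put the strain labels in doubt. The alpha joining segment Traj43 dominated in the libraries that by label carry no transgenic receptor. It held 2.91% and 5.04% of joining-segment counts in the male and female libraries labelled TCR1640, against 79.2% and 75.6% in those labelled SJL/J. Whether the transgenic receptor uses Traj43 was not tested. The names below are therefore the labels, and any direction between strains rests on them. Cells other than T cells were also present, and in bulk RNA fewer cells of a type and less RNA per cell cannot be told apart. The reads were stranded but the strand setting of the counting is not given in the sources used here. Where a coding gene and a noncoding feature overlap on opposite strands, the larger count belonged to the noncoding one in 746 of 985 pairs (75.7%, exact 95% interval 72.9 to 78.4). The 8 members whose exons overlap those of a gene on the other strand are therefore uncertain and are named with their partner, while 27 members have no such exon overlap. Of these 27, Mvd, Insig2 and Acaca lie within or across an opposite-strand gene without sharing exon bases, and those genes had 0 to 5 counts in all.

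The promoters of 6 members that were called between the strain labels are shown, to set their sequence beside their direction, with that of Hmgcs1, a textbook SREBP target. Each is the 250 bases before the gene's start in RefSeq (build GRCm38.p6), read on the gene's strand. Capitals mark either the sterol regulatory element core (TCACNCCAC) or a CCAAT box, which reads ATTGG when on the other strand. CCAAT boxes bind NF-Y, which works beside SREBP at many of these promoters. The windows lie at chr13:119690101-119690350 (plus strand) for Hmgcs1, chr17:12960726-12960975 (minus strand) for Acat2, and chr13:8885356-8885605 (plus strand) for Idi1. Those of Cyp51, Fads2, Elovl6 and Abca1 lie at chr5:4104698-4104947 (minus strand), chr19:10101504-10101753 (minus strand), chr3:129532136-129532385 (plus strand) and chr4:53159896-53160145 (minus strand).
Hmgcs1: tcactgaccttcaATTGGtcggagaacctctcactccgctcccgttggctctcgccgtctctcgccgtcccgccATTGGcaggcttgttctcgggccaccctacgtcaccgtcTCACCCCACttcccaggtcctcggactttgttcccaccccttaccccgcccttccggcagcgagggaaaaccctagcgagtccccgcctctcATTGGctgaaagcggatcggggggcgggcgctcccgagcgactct
Acat2: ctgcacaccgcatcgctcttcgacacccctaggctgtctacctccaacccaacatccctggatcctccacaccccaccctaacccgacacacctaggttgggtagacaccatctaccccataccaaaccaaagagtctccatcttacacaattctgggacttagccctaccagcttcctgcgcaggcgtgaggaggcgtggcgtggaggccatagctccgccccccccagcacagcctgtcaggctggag
Idi1: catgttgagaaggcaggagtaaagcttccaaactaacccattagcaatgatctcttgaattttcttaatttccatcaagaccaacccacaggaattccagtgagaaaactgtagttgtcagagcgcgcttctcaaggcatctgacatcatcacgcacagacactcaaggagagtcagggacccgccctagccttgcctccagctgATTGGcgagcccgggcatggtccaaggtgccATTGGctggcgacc
Cyp51: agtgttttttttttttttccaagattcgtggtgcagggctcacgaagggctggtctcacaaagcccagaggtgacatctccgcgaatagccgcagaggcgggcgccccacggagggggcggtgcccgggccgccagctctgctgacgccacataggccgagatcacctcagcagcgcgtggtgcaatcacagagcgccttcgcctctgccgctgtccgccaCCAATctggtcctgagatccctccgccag
Fads2: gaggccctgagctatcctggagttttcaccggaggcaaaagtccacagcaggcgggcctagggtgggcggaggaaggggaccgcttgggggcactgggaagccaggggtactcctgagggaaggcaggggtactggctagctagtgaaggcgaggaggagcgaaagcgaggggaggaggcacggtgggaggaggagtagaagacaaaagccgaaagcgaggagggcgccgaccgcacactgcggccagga
Elovl6: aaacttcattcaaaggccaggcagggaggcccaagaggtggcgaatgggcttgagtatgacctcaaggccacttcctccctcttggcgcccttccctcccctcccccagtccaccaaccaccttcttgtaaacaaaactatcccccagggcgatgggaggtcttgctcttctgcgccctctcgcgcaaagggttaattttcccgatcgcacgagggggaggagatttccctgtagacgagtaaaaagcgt
Abca1: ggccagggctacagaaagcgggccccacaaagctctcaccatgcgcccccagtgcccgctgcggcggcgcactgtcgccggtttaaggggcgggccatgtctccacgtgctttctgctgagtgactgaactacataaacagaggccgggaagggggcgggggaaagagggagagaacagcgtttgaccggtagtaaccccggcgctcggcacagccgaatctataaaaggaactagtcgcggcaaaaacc

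Hmgcs1 had 1 sterol regulatory element core and 3 CCAAT boxes in this window, Idi1 had 2 CCAAT boxes and Cyp51 had 1. Acat2, Fads2, Elovl6 and Abca1 had no match, which says only that these letters are not in this window. The table held entries for 27 of the 35 members, with 35 windows in all, as some genes have several starts, and none for Fads1 or Abcg1. The sterol regulatory element core was in 1 of the 35 windows (2.86%) and in 1.05% of all 32851 windows. A CCAAT box was in 21 of them (60.0%), against 33.8% of all windows. GGTCA repeated after a spacer of 4 bases, searched on both strands, had no match in the members. It was in 0.0457% of all windows. The LXR motif DR4 has longer half-sites, so this spacing does not match it and DR4 was not searched.

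The genes differed widely in level. Levels are given in CPM, a gene's count scaled to the column's total, and between genes in CPM per kilobase of exon. The highest mean over the 4 groups was that of Acat2 at 112 CPM per kb. Acat2, the cytosolic thiolase that joins acetyl-CoA units, was followed by the stearoyl-CoA desaturase gene Scd2 at 26.2, the sterol carrier gene Stard4 at 23.4, the citrate lyase gene Acly at 23.2 and the mevalonate decarboxylase gene Mvd at 21.8 CPM per kb. The lowest was Abca1 at 0.183 CPM per kb, with 64 counts over all 8 columns, so its values are imprecise. The other LXR targets were also low, at 1.15 CPM per kb for Abcg1 and 1.25 CPM per kb for Mylip, which encodes a ubiquitin ligase.

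**Figure D1:**
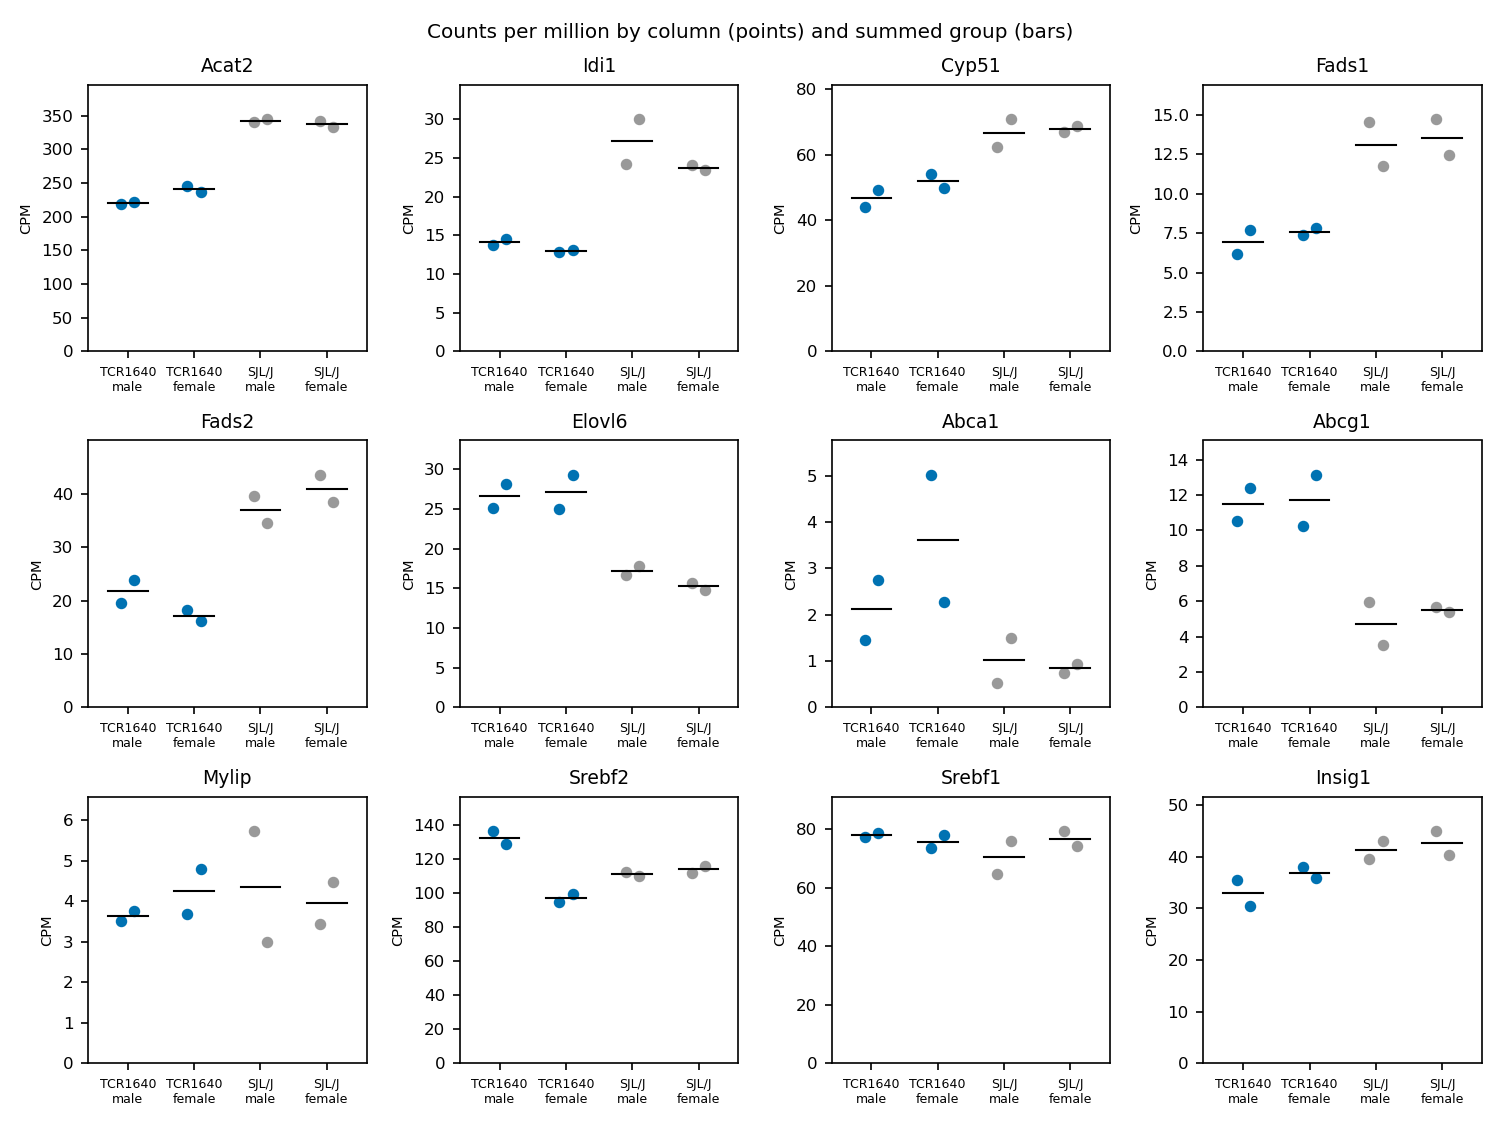
CPM (vertical axis from 0) of 12 members in each of the 8 columns, with points for columns and a bar for the summed group. The points of Acat2, Idi1, Fads1 and Fads2 lie lower in the 4 columns labelled TCR1640 than in the 4 labelled SJL/J, and those of Elovl6 and Abcg1 lie higher.

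Between the strain labels, averaged over the sexes, 3 sterol enzymes and both polyunsaturated desaturases were lower, and 1 elongase and both cholesterol efflux pumps were higher. Acat2, Idi1, Cyp51, Fads1 and Fads2 fell in the libraries labelled TCR1640 relative to those labelled SJL/J, and Elovl6, Abca1 and Abcg1 rose. That is 8 of 35 members (22.9%) called at an adjusted p below 0.05 by edgeR's quasi-likelihood test, against 26.5% of all genes tested. The share was close to this background, so the list as a whole did not stand out by its number of calls. By direction, 3 members were higher (8.57%, against 13.4% of all genes) and 5 were lower (14.3%, against 13.1%). The estimate lay below 0 for 24 of 35 members (68.6%), compared with 49.1% of all genes. This fit has 4 summed samples and 1 residual degree of freedom, so its adjusted p-values reflect how far the strain difference varied between the sexes and a spread shared across genes (common coefficient of variation 9.78%). DESeq2 called 3 of the 35, namely Acat2, Idi1 and Fads2, where it called 8.17% of all genes. Taken by sex, 6 members were at least 1.5-fold apart in males, where 24.3% of all genes were, and 6 in females, where 20.4% were, with an exact 95% counting interval that excludes equality. Between the 2 columns of a group 1.99% to 2.22% of genes were that far apart.

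Among the mevalonate and sterol enzymes, 3 of 18 were lower (16.7%, against 13.1% of all genes). None was higher, against 13.4% of all genes, and 15 were not called. Their median log2 difference was -0.23, beside 0.01 for all genes. The largest difference was that of Idi1 (ENSMUSG00000058258, chr13:8885501-8892451 on GRCm38), the isomerase that makes the dimethylallyl unit from which the sterol chain is built. Idi1 had 13.8 and 14.6 CPM in TCR1640 males and 12.9 and 13.1 CPM in TCR1640 females, against 24.2 and 30.0 CPM in SJL/J males and 24.1 and 23.5 CPM in SJL/J females. The highest column labelled TCR1640 was well below the lowest labelled SJL/J. The log2 difference was -0.90 ± 0.17 (SE, edgeR adjusted p = 3.10e-06). Its ratio was apart in both sexes, with a log2 ratio of -0.94 (95% interval -1.25 to -0.62) in males and -0.87 (-1.23 to -0.52) in females. Idi1 overlaps Gm48574 on the other strand by 323 bases. Gm48574 had 423 counts in all and a log2 difference of 0.10 (edgeR adjusted p = 0.782).

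Acat2 (ENSMUSG00000023832, chr17:12942890-12960747) had 219 and 221 CPM in TCR1640 males and 246 and 237 CPM in TCR1640 females, against 341 and 345 CPM in SJL/J males and 342 and 333 CPM in SJL/J females. Its 4 columns labelled TCR1640 all lay below the others, and its exons overlap no other gene's on the opposite strand. The log2 difference was -0.56 ± 0.12 (SE, edgeR adjusted p = 2.56e-05). With 9554 counts this gene had the narrowest intervals, at -0.64 (-0.72 to -0.56) in males and -0.48 (-0.57 to -0.40) in females, and only the male ratio passed 1.5-fold. Cyp51 (ENSMUSG00000001467, chr5:4081145-4104746), which removes a methyl group from lanosterol, had 43.9 and 49.2 CPM in TCR1640 males and 54.0 and 49.9 CPM in TCR1640 females, against 62.4 and 70.8 CPM in SJL/J males and 66.8 and 68.8 CPM in SJL/J females. Its groups did not overlap either, and the log2 difference was -0.45 ± 0.14 (SE, edgeR adjusted p = 0.00702). Cyp51 overlaps Akap9 by 166 bases, and Akap9 had a log2 difference of -0.23 (edgeR adjusted p = 0.172).

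The other 15 sterol enzymes were not called. Upstream of Idi1 these were Hmgcs1, which makes HMG-CoA, the kinases Mvk and Pmvk, and Mvd, with log2 differences of 0.00, -0.13, 0.01 and 0.05. Hmgcs1 is uncertain because its partner Gm48342 holds 33532 counts against 1632 for Hmgcs1 itself. Next come Fdps, Fdft1, Sqle and Lss, which make farnesyl diphosphate, squalene, squalene epoxide and lanosterol. Fdps had a log2 difference of -0.40, Fdft1 of 0.25, Sqle of -0.30 and Lss of -0.36. Lss was the nearest to the threshold (edgeR adjusted p = 0.0889), and its partner 4930483K19Rik had -0.19. Fdft1 shares 774 bases with Ctsb, whose log2 difference was 0.09. The late enzymes Tm7sf2, Msmo1, Nsdhl, Hsd17b7, Ebp, Sc5d and Dhcr7, which turn lanosterol into cholesterol, had log2 differences of -0.60, -0.15, -0.05, -0.35, -0.34, -0.09 and 0.18. These late enzymes had 134 (Tm7sf2) to 441 (Dhcr7) counts in all, and the SE of their log2 differences ran between 0.20 and 0.34. By the separate columns, Sqle was lower in all 4 labelled TCR1640 and Fdft1 was higher in all 4, without either being called.

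**Figure D2:**
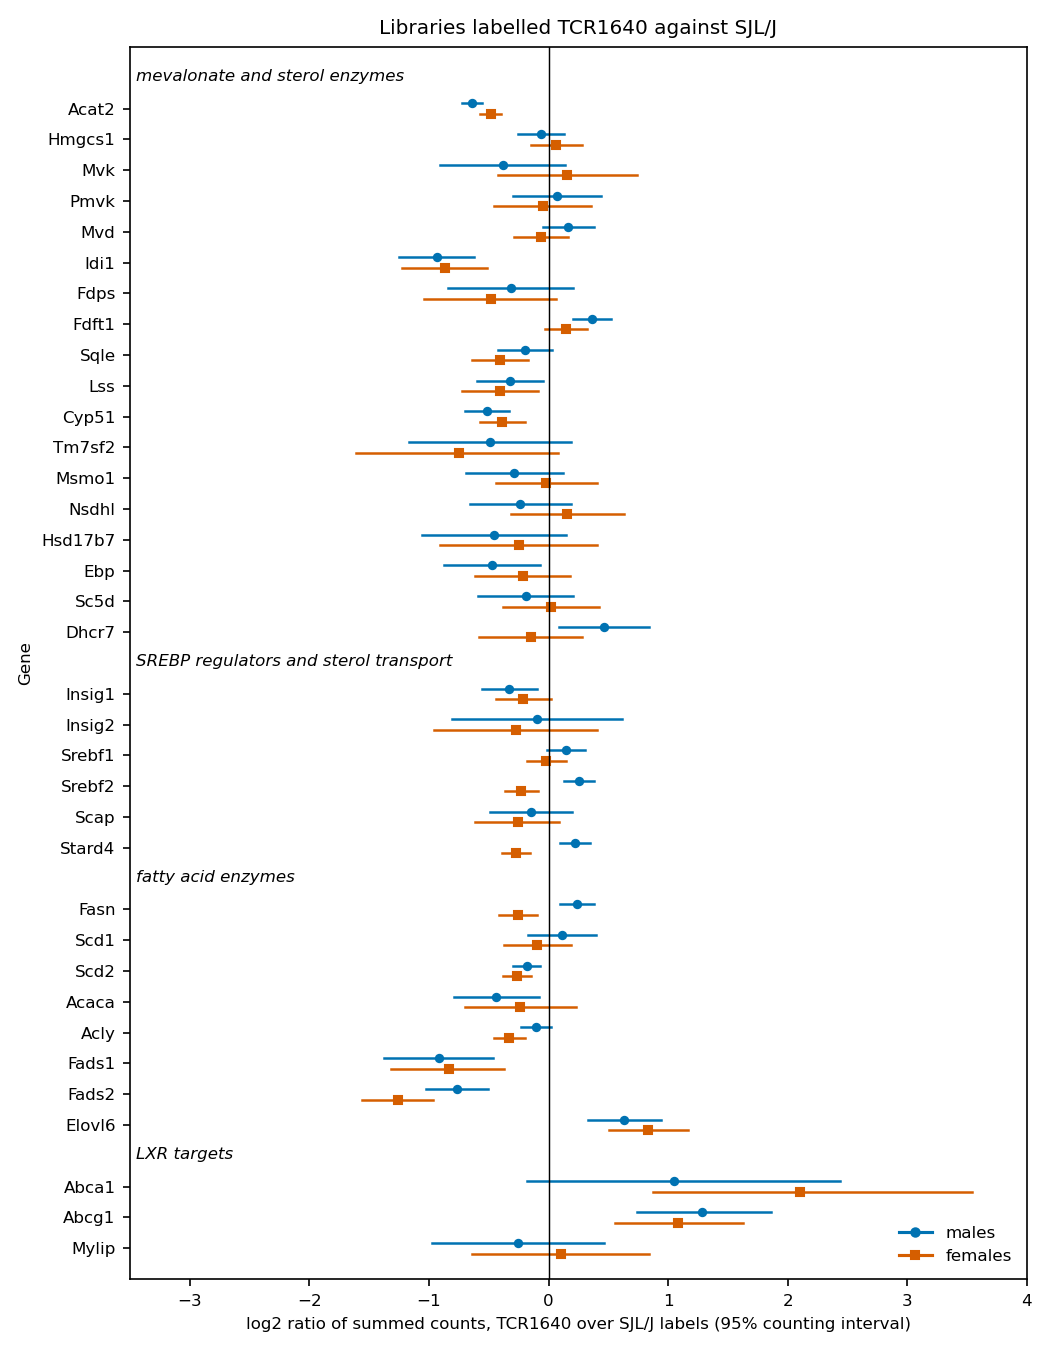
Log2 ratio of the libraries labelled TCR1640 to those labelled SJL/J for each member, males and females, with exact 95% counting intervals. Idi1, Fads1 and Fads2 lie below 0 and Elovl6 and Abcg1 above it in both sexes, while Srebf2, Stard4 and Fasn lie above 0 in males and below 0 in females.

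None of the 6 sterol sensing and transport genes was called between the strain labels, against 26.5% of all genes. Their median log2 difference was -0.11. Srebf1 had 77.5 and 78.8 CPM in TCR1640 males and 73.5 and 77.9 CPM in TCR1640 females, against 64.7 and 76.0 CPM in SJL/J males and 79.3 and 74.2 CPM in SJL/J females. The columns overlapped and the log2 difference was 0.07 ± 0.13 (SE, edgeR adjusted p = 0.778). It shares 109 bases with Rai1, which had 0.18. Insig1, itself a SREBP target, had 35.5 and 30.5 CPM in TCR1640 males and 37.9 and 35.8 CPM in TCR1640 females, against 39.5 and 43 CPM in SJL/J males and 44.9 and 40.4 CPM in SJL/J females. All 4 columns labelled TCR1640 were lower, at a log2 difference of -0.27 ± 0.15 (SE, edgeR adjusted p = 0.175). Insig2 had 4.12 and 3.74 CPM in TCR1640 males and 5.01 and 3.78 CPM in TCR1640 females, against 4.94 and 3.5 CPM in SJL/J males and 4.91 and 5.64 CPM in SJL/J females, with overlapping columns and a log2 difference of -0.19 (edgeR adjusted p = 0.731). Scap had 14.8 and 15.8 CPM in TCR1640 males and 16.1 and 15.6 CPM in TCR1640 females, against 17.7 and 16.3 CPM in SJL/J males and 16.9 and 20.9 CPM in SJL/J females. Its columns did not overlap, the log2 difference was -0.20 (edgeR adjusted p = 0.452), and it shares 985 bases with 5830462I19Rik, which has 6309 counts against 566 for Scap.

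For Srebf2 (ENSMUSG00000022463, chr15:82147181-82205379) the strain labels gave opposite ratios in the 2 sexes. Srebf2 had 136 and 129 CPM in TCR1640 males, against 113 and 110 CPM in SJL/J males, and 94.9 and 99.4 CPM in TCR1640 females, against 112 and 116 CPM in SJL/J females. The columns labelled TCR1640 were the higher ones in males and the lower ones in females, without overlap within a sex. Its log2 ratio was 0.25 (0.13 to 0.38) in males and -0.23 (-0.37 to -0.09) in females, and the additive estimate was 0.02. Stard4, which carries cholesterol between membranes, and Fasn, which builds palmitate, showed the same arrangement and are described because of it, after their values were seen. Stard4 had 124 and 125 CPM in TCR1640 males, against 109 and 104 CPM in SJL/J males, and 140 and 124 CPM in TCR1640 females, against 156 and 162 CPM in SJL/J females. Its log2 ratio was 0.22 (0.09 to 0.35) in males and -0.27 (-0.39 to -0.15) in females. Fasn had 107 and 95.5 CPM in TCR1640 males, against 88.1 and 83.8 CPM in SJL/J males, and 75.1 and 75.9 CPM in TCR1640 females, against 96.0 and 84.8 CPM in SJL/J females. Its log2 ratio was 0.24 (0.10 to 0.38) in males and -0.26 (-0.42 to -0.10) in females. Intervals on opposite sides of equality were found for these 3 of 35 members (8.57%) and for 1.37% of all genes tested. The 2 shares were not matched for count depth, and ratios this small can meet the rule only in well-counted genes. All 3 are well counted and have no such exon overlap, but each ratio is under 1.5-fold and, with 1 sample per group, has no replicate check.

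Among the fatty acid enzymes, 2 of 8 were lower (25%, against 13.1% of all genes) and 1 was higher (12.5%, against 13.4%). The share called was 37.5%, against 26.5% of all genes, and rests on 8 genes. Their median log2 difference was -0.22. The pair of desaturase genes Fads1 and Fads2, neighbours on chromosome 19, were both lower. Their products put double bonds into polyunsaturated fatty acids. Fads2 (ENSMUSG00000024665, chr19:10062765-10101746) had 19.6 and 23.8 CPM in TCR1640 males and 18.2 and 16.1 CPM in TCR1640 females, against 39.5 and 34.5 CPM in SJL/J males and 43.5 and 38.5 CPM in SJL/J females. Its log2 difference was -1.0 ± 0.16 (SE, edgeR adjusted p = 4.88e-09), the smallest adjusted p of the 35 members. Fads1 (ENSMUSG00000010663, chr19:10182888-10196877) had 6.18 and 7.68 CPM in TCR1640 males and 7.38 and 7.82 CPM in TCR1640 females, against 14.6 and 11.8 CPM in SJL/J males and 14.7 and 12.5 CPM in SJL/J females. The log2 difference was -0.88 ± 0.22 (SE, edgeR adjusted p = 0.000599), and no column labelled TCR1640 reached the lowest labelled SJL/J for either gene. Both were apart in both sexes, Fads2 at log2 ratios of -0.76 (-1.03 to -0.51) in males and -1.26 (-1.56 to -0.96) in females, and Fads1 at -0.92 (-1.38 to -0.46) in males and -0.84 (-1.32 to -0.37) in females.

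Elovl6 (ENSMUSG00000041220, chr3:129532355-129638495), which lengthens saturated and monounsaturated fatty acids of palmitate length, was the fatty acid enzyme that rose. Elovl6 had 25.1 and 28.2 CPM in TCR1640 males and 25.0 and 29.3 CPM in TCR1640 females, against 16.6 and 17.8 CPM in SJL/J males and 15.7 and 14.8 CPM in SJL/J females. Every column labelled TCR1640 was above every column labelled SJL/J. The log2 difference was 0.73 ± 0.17 (SE, edgeR adjusted p = 0.000142), and the ratio was apart in both sexes. Elovl6 shares 34 bases with Gm35986, which has 76 counts and a log2 difference of 1.08 (edgeR adjusted p = 0.0669). The other 5 fatty acid enzymes were not called, with log2 differences of -0.01 for Fasn, 0.01 for Scd1, -0.22 for Scd2, -0.35 for the acetyl-CoA carboxylase gene Acaca and -0.22 for Acly. Scd2 and Acly were lower in all 4 columns labelled TCR1640. Over the members, separate columns labelled TCR1640 lay all above those labelled SJL/J for 3 genes (8.57%, against 16.7% of all genes) and all below for 10 (28.6%, against 16.2%).

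Of the 3 LXR targets, 2 rose (66.7%, against 13.4% of all genes), a share that rests on 3 genes. DESeq2 did not call Abca1 or Abcg1. The median log2 difference was 1.18, which is the value of Abcg1, beside -0.23 for the sterol enzymes. Abcg1 (ENSMUSG00000024030, chr17:31057675-31117988), which exports cholesterol to lipoproteins, had 10.5 and 12.4 CPM in TCR1640 males and 10.3 and 13.1 CPM in TCR1640 females, against 5.98 and 3.5 CPM in SJL/J males and 5.65 and 5.40 CPM in SJL/J females. All 4 columns labelled TCR1640 were the higher ones, at a log2 difference of 1.18 ± 0.25 (SE, edgeR adjusted p = 1.89e-05), and the ratio was apart in both sexes at 1.28 (0.74 to 1.86) in males and 1.09 (0.56 to 1.63) in females. Abca1 (ENSMUSG00000015243, chr4:53030787-53159895), which loads cholesterol onto apolipoprotein, had 1.44 and 2.76 CPM in TCR1640 males and 5.01 and 2.27 CPM in TCR1640 females, against 0.520 and 1.5 CPM in SJL/J males and 0.737 and 0.94 CPM in SJL/J females. The lower male column labelled TCR1640 was below the higher male column labelled SJL/J, so the groups overlapped, and the counts were 21 and 28 in TCR1640 males and females, against 8 and 7 in SJL/J males and females. The log2 difference was 1.58 ± 0.50 (SE, edgeR adjusted p = 0.00925), with an interval in males of -0.18 to 2.44. Without TCR1640 female replicate 1 the edgeR adjusted p of Abca1 was 0.114, and without TCR1640 male replicate 2 it was 0.0731. Abca1 was also not called with the number 1 columns alone or the number 2 columns alone. Mylip had 3.5 and 3.74 CPM in TCR1640 males and 3.69 and 4.79 CPM in TCR1640 females, against 5.72 and 3.00 CPM in SJL/J males and 3.44 and 4.46 CPM in SJL/J females. Its columns overlapped and its log2 difference was -0.08 (edgeR adjusted p = 0.896), so the third target did not share the rise.

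Other genes of these pathways outside the 35 were also counted. Of 22 listed, 20 were tested, and 2 were higher and 5 lower (35% called, against 26.5% of all genes). The lower ones were Acss2, which makes acetyl-CoA from acetate (-0.35, edgeR adjusted p = 0.0339), the elongase gene Elovl1 (-0.57, adjusted p = 0.00161), Mid1ip1, whose product binds acetyl-CoA carboxylase (-0.84, adjusted p = 0.000113), the sterol-regulated Tmem97 (-0.60, adjusted p = 0.0162), and Mbtps2, a protease that cuts SREBP free in the Golgi (-0.80, adjusted p = 0.0412). The higher ones were Elovl5, which lengthens polyunsaturated fatty acids (0.50, adjusted p = 0.0137), and Lipa, the lysosomal acid lipase (0.77, adjusted p = 0.00696). Acss2, Elovl1 and Mid1ip1 overlap genes on the other strand and are uncertain. Cdc20, opposite Elovl1, and Gm14493, opposite Mid1ip1, were themselves lower, at -0.61 and -0.33. Of the partners of Acss2, Gss was lower at -0.45, and Acss2os and Ggt7 had 0.03 and -0.08 and were not called.

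**Figure D3:**
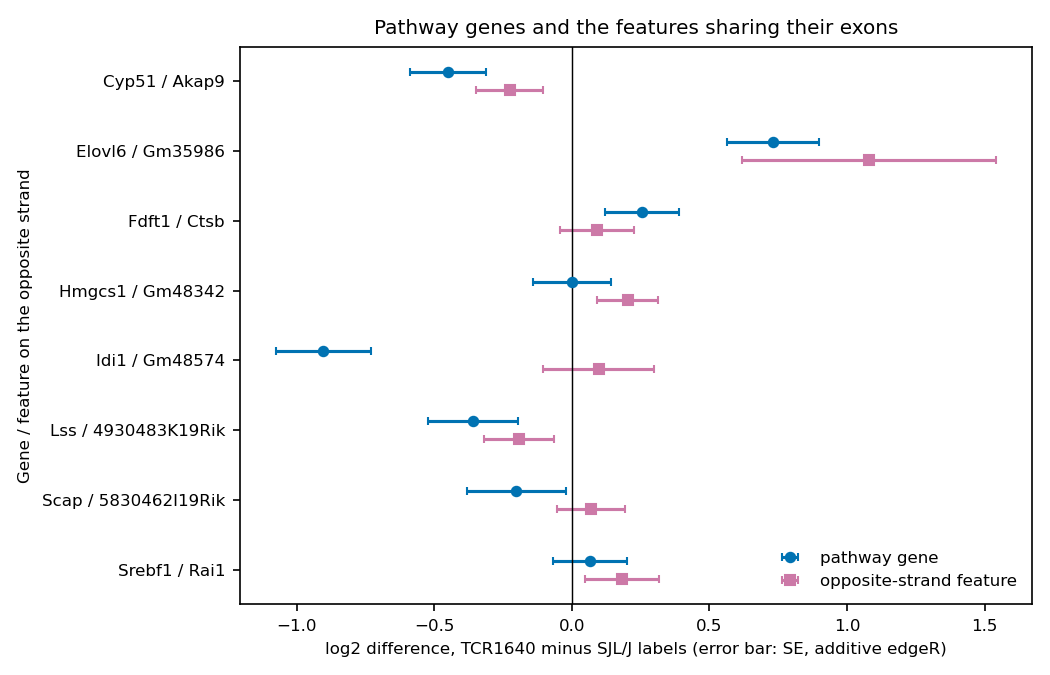
Log2 difference between the strain labels for members that overlap a gene on the other strand, and for that partner, with SE bars. Idi1 lies at -0.90 beside 0.10 for Gm48574, and Elovl6 lies at 0.73 beside 1.08 for Gm35986.

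Between the sexes no member passed the test. Of the 35, 0 were called by edgeR's quasi-likelihood test, against 1.10% of all genes, and DESeq2 also called 0. Taking the 8 columns as separate libraries, which treats near-technical repeats as replicates, called 5 of 35, where it called 17.5% of all genes. These were Fdft1, Srebf2, Fasn and Acaca, higher in males, and Stard4, lower in males. At an unadjusted p under 0.05 there were 2, against 9.48% of all genes, namely Stard4 at a male-minus-female log2 difference of -0.33 (edgeR adjusted p = 0.263) and Acaca at 0.59 (edgeR adjusted p = 0.153). Acaca had 13.2 and 12.8 CPM in TCR1640 males, against 9.75 and 8.83 CPM in TCR1640 females, and 16.9 and 18.3 CPM in SJL/J males, against 9.58 and 12.2 CPM in SJL/J females. Its male columns were higher within each label, with a log2 ratio of 0.49 (0.06 to 0.92) in TCR1640 and 0.69 (0.30 to 1.09) in SJL/J. Between TCR1640 males and females 0 of 35 members were at least 1.5-fold apart with a counting interval that excludes equality, where 7.77% of all genes were, and between SJL/J males and females Acaca alone was, where 6.74% of all genes were. The sex comparison of Srebf2 differed by label, at 0.45 (0.32 to 0.58) in TCR1640 and -0.03 (-0.17 to 0.10) in SJL/J. An approximate counting interval on that difference between labels left out 0 for 7 of 35 members (20%), and for 22.3% of all genes. The 7 were Dhcr7, Srebf2, Stard4, Fasn, Acly and Fads2, with the larger male-to-female ratio in TCR1640, and Acat2, with the smaller.

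**Figure D4:**
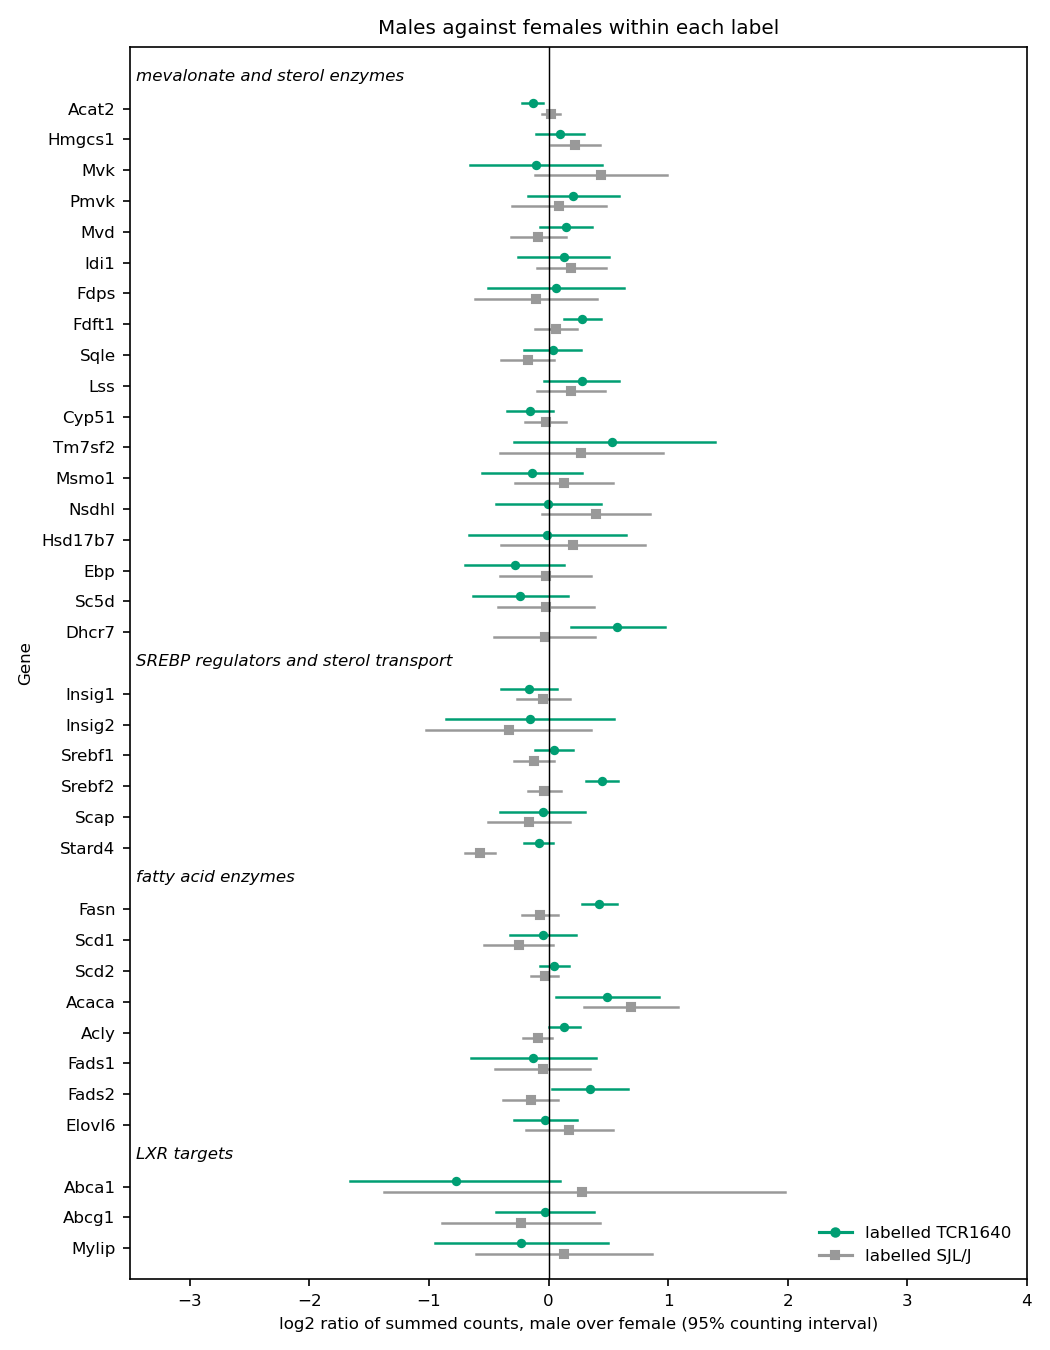
Log2 ratio of males to females for each member, in the libraries labelled TCR1640 and in those labelled SJL/J, with exact 95% counting intervals. Srebf2 and Fasn lie above 0 in TCR1640 and near 0 in SJL/J, Stard4 lies below 0 in SJL/J, and Acaca lies above 0 in both.

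Other cell types moved with the strain labels, and their part in the differences above was not tested. Neutrophil markers summed to 1.86 to 6.32 CPM in the columns labelled TCR1640, against 65.8 to 171 CPM in those labelled SJL/J, and 9 of 9 tested were lower. Mast cell and basophil markers summed to 16.6 to 19.9 CPM, against 91.4 to 113 CPM, and 8 of 8 tested were lower. Erythroid and platelet markers summed to 38.5 to 47.7 CPM, against 176 to 314 CPM, with 7 of 10 lower. The fall in that sum was mainly the platelet genes Pf4, Ppbp and Itga2b, with log2 differences of -6.81, -11.0 and -3.30. Of the erythroid genes, Hbb-bt and Klf1 were lower at -1.01 and -2.14. Hba-a1, Hbb-bs and Alas2 were not called, at -0.06, -0.31 and 0.14. Genes of G2 and mitosis summed to 1132 to 1176 CPM, against 1586 to 1704 CPM, with 13 of 16 lower. B cell markers were the reverse, at 49.5 to 54.4 CPM, against 29.4 to 33.0 CPM, with 3 of 8 higher. T cell markers summed to 1804 to 1927 CPM, against 1434 to 1570 CPM, with 5 of 10 higher and 3 lower. Within them Cd8a had 567 to 861 counts per column, against 83 to 114, at a log2 difference of 2.69, and Cd8b1 had 2.39. Cd4 was lower at -0.52, so the coreceptors of the 2 main T cell lineages moved in opposite directions. Macrophages are a known site of high Abca1 and Abcg1. The 12 macrophage and monocyte markers summed to 129 to 145 CPM, against 126 to 133 CPM, and 8 of them had at most 10 counts over all columns, C1qb having 0. Of 3 tested, 1 was lower, namely Lyz2 with 1 to 2 counts per column, against 13 to 37. Most of the sum was Csf1r, and without it, a choice made after the values were seen, the sum was 6.18 to 9.06 CPM in the columns labelled TCR1640, against 10.1 to 14.5 CPM in those labelled SJL/J. That direction was mainly Lyz2, and Cd68 had a log2 difference of 0.44 (edgeR adjusted p = 0.310). Dendritic cell markers summed to 305 to 392 CPM, against 332 to 346 CPM, with 0 of 2 tested called. Nearly all of that sum was Xcr1, with 1231 to 1509 counts per column, while Cd209a had 0 counts and Clec9a and Siglech at most 1 in any column.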

How the data were processed

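Polyadenylated RNA was sequenced from 4 groups of stimulated mouse immune cells, with libraries from a stranded KAPA kit and 500 ng of RNA, per the labels' protocols. The table deposited by the authors has 8 columns of raw counts, 1 whole number per Ensembl gene and column. Per the submitters' processing notes, HTSeq, Bowtie2 and bcl2fastq 2.17 were used with build mm10. Neither the annotation nor the strand setting of the counting is given there. Symbols, positions and overlaps came from GENCODE M21 on GRCm38, in which 147 identifiers had no entry. Promoter sequences came from RefSeq on GRCm38.p6.

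The 2 columns of a group were summed. An additive model of sex and strain label was fitted to the 4 sums with edgeR 4.0.16 under R 4.3.3 (TMM, filterByExpr, quasi-likelihood F test, Benjamini-Hochberg threshold of 0.05 over all 17261 genes). The SE was taken as the estimate divided by the root of its F value. Groups were compared in pairs by the log2 ratio of their sums, scaled by TMM totals. Their exact 95% intervals cover counting error only and carry no p-value. CPM divided each count by the column's share of its group's TMM-scaled total over the genes tested. That share came from the column totals of 3765291 to 5116467 counts. The code was tested on simulated data. The alternatives were DESeq2 1.42.0, other scalings, other filters, separate columns with and without the replicate number as a block, and leaving out each column.

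The members and lists were chosen with earlier results of these data known. Every member is named, and full values are given for those called between strain labels or sexes and for Srebf1, Srebf2, Scap, Insig1, Insig2, Abca1, Abcg1 and Mylip. Of other pathway genes, those called between strain labels are named. The column values of Stard4, Fasn and Acaca were added after their values were seen. Some genes of these pathways are not reported here by name.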

Additional observations from a re-analysis of the deposited data

Results flagged for a closer look

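For 3 members the ratio of the libraries labelled TCR1640 to those labelled SJL/J pointed one way in males and the other way in females, with both counting intervals leaving out equality. The male log2 ratio minus the female log2 ratio was 0.48 for Srebf2, 0.49 for Stard4 and 0.50 for Fasn. With 1 sample per group this difference was not tested against the spread between mice. It kept its sign under the other scalings and without any single column, between 0.43 and 0.55 for Srebf2, 0.40 and 0.58 for Stard4, and 0.40 and 0.61 for Fasn. The 3 genes were picked from these same data, and the columns of a group are near-technical repeats. The kept sign is therefore no independent check.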

How the results depend on the processing

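Of the 35 members, 8 were called between the strain labels, 3 higher and 5 lower. The count was 5 (1 higher, 4 lower) with the number 1 columns alone, where 19.9% of all genes were called, 7 (2 higher, 5 lower) with the number 2 columns alone (23.1%), 3 (all lower) with DESeq2 (8.17%), 5 (2 higher, 3 lower) over the 27 members without an opposite-strand overlap, which leaves fewer genes by construction, and 15 (5 higher, 10 lower) with the other pathway genes added. Taking the 8 columns as separate libraries gave 17 calls (4 higher, 13 lower), both without and with the replicate number as a block, where 49.5% and 49.7% of all genes were called. Between the sexes that fit called 5 members (4 higher, 1 lower), where 17.5% of all genes were called without the replicate block and 18.2% with it, and every other setting run called 0. Leaving out each column in turn gave 7 to 9 calls between the strain labels and 0 between the sexes. Abca1 was lost without TCR1640 female replicate 1 or TCR1640 male replicate 2, and Lss was gained without SJL/J female replicate 1 (edgeR adjusted p = 0.0433). DESeq2 adjusted p-values were 0.198 for Cyp51, 0.194 for Fads1, 0.124 for Elovl6, 0.409 for Abca1 and 0.0843 for Abcg1. With the number 1 columns alone the edgeR adjusted p was 0.0589 for Cyp51 and 0.0562 for Abcg1. With the number 2 columns alone it was 0.0613 for Fads1, and Lss was gained (0.0187). Abca1 was not among the calls with the number 1 columns alone or with the number 2 columns alone. The causes of these changes were not tested. RLE and upper-quartile scaling, TMM factors from genes without overlap, no filter and a filter of 1 CPM left 8 calls. The median ratios of the sterol enzymes, fatty acid enzymes and LXR targets stayed within the median half-width of their genes' counting intervals. That is a loose limit for the LXR targets, whose intervals are wide. No called value changed sign. The number 1 and number 2 columns alone, the joint list and the male-minus-female differences were chosen after seeing the data. Same-numbered columns did not deviate together (6 correlations of -0.01 to 0.03 over 12450 genes), so they share only a number. Depth sets the precision of the low genes, with Abca1 at 64 and Tm7sf2 at 134 counts over all columns.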

Other observations

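The feature 5830462I19Rik, which lies opposite Scap, had the same arrangement as Srebf2, Stard4 and Fasn, with a log2 ratio of TCR1640 to SJL/J labels of 0.36 (95% counting interval 0.26 to 0.46) in males and -0.23 (-0.33 to -0.12) in females. It was looked at after its values were seen. Its columns held 202 and 222 CPM in TCR1640 males, against 172 and 159 CPM in SJL/J males, and 165 and 167 CPM in TCR1640 females, against 191 and 198 CPM in SJL/J females. The ratio of Scap itself was -0.15 in males and -0.26 in females, with both intervals including equality.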
